A study of Rattus norvegicus with 57 samples.

Results

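This account follows 7 genes of hepatocyte uptake, the carriers that take bile acids and other organic ions from blood into liver cells: Slc10a1, Slco1a1, Slco1a4, Slco1b2, Slco2b1, Slc22a7 and Slc22a8. They are 7 of the 10725 genes tested, and each is read on the brightest of the probe sets annotated to that gene alone (11 probe sets in all). Liver RNA of 57 male Han Wistar rats (Crl:WI(Han)), aged 8 to 10 weeks at the start, was measured on 57 Affymetrix Rat Genome 230 2.0 arrays, each from a different animal. Methapyrilene, an antihistamine known to injure rat liver, had been given by mouth every day at 80 or 30 mg/kg in carboxymethylcellulose, and control rats were given this vehicle alone. Livers were taken on day 4, 8 or 15, or on day 24, when 14 days of dosing had been followed by 10 days without drug. Each of the 12 groups of dose and day held 5 arrays, except those of 80 mg/kg on day 4, 30 mg/kg on day 24 and control on day 24, with 4 each. The RNA came from bulk liver tissue, so fewer hepatocytes and less RNA per hepatocyte cannot be told apart.

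Bile acids are made in hepatocytes, secreted into bile, reabsorbed in the gut and taken up again from portal blood through the sinusoidal membrane. Slc10a1 (Ntcp) drives this uptake with the sodium gradient and prefers conjugated bile acids, while the Slco genes encode sodium-independent exchangers (Oatps) of broad range and the Slc22 genes encode Oat2 and Oat3, which carry small organic anions. ABC carriers export into bile and, beside other carriers, back into blood, and the nuclear receptor Nr1h4 (FXR) senses bile acids inside the cell.

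At 80 mg/kg all 7 carriers were lower than in controls by day 8 and lowest on day 15. The median change of the 7 was -0.46 on day 4, -1.07 on day 8, -1.53 on day 15 and -0.18 on day 24 (log2, 80 mg/kg over control), beside 0.081, 0.15, 0.16 and 0.044 over all genes tested. With limma and Benjamini-Hochberg adjustment over all genes, the number called lower (adjusted p under 0.05) was 5 of 7 on day 4, 7 on day 8, 7 on day 15 and 2 on day 24, and none was called higher. The day 4 count was 3 without control replicate 3 or without 80 mg/kg replicate 3, and 2 without 80 mg/kg replicate 5. The day 24 count was 1 without 80 mg/kg replicate 1 or 2, and 4 when all arrays were shifted to a common median. The share of all genes called lower in the same comparisons was 9.19%, 16.6%, 20.5% and 3.08%. At 30 mg/kg none of the 7 was called on any day. After the recovery period the loss at 80 mg/kg had shrunk for all 7, and Slco1a4 and Slc22a7 were still called lower than in controls.

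**Figure D1:**
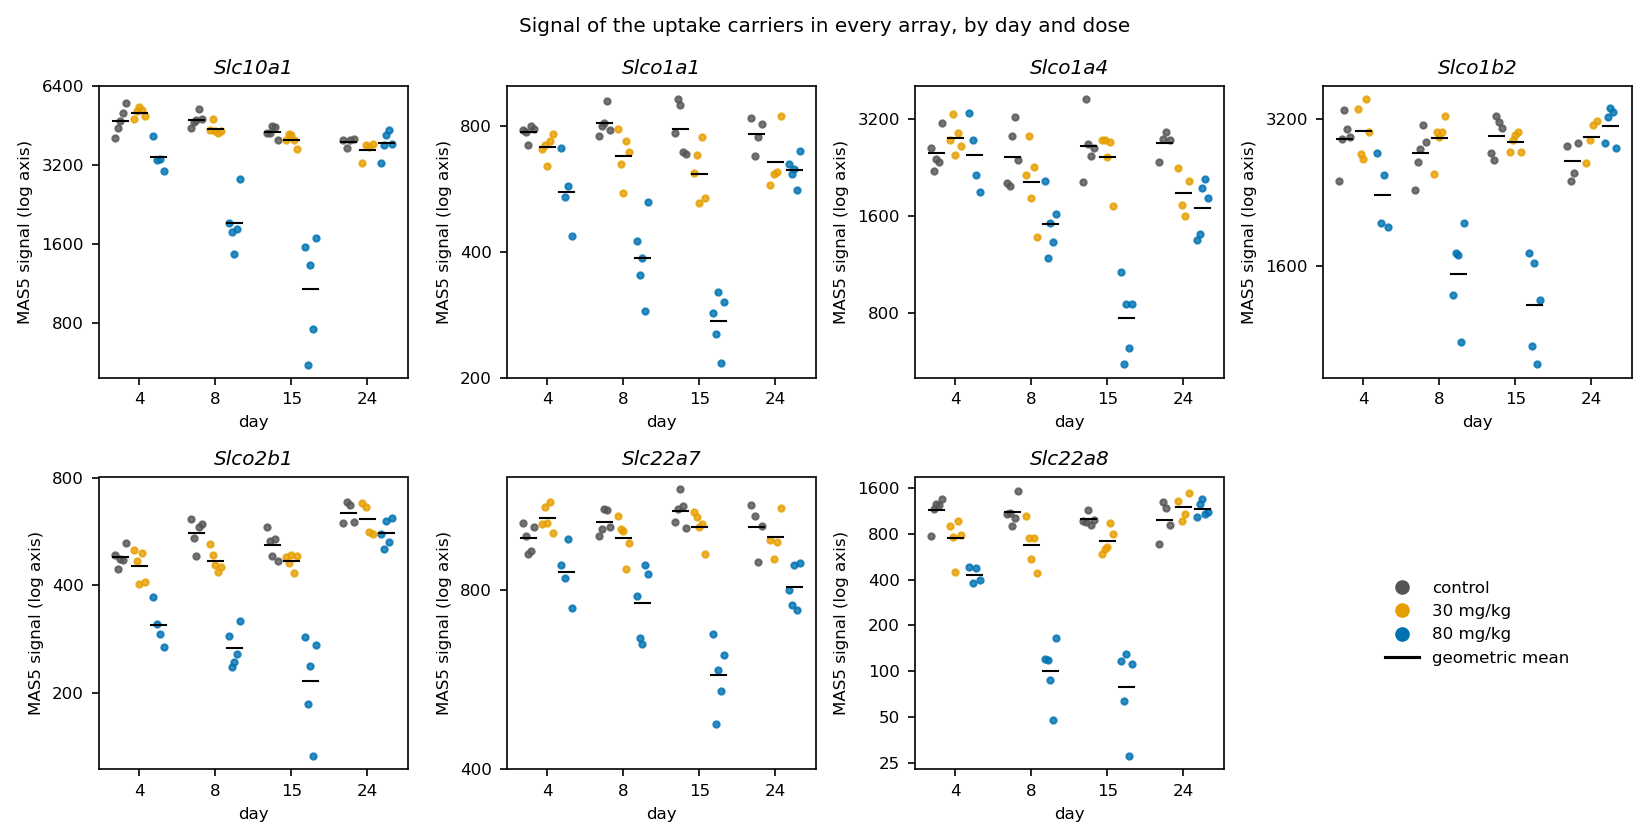
MAS5 signal (linear units on a log axis) of the 7 uptake carriers in each of the 57 arrays, by day and dose, with a bar at the geometric mean of each group. On day 15 all 5 livers at 80 mg/kg lie below all 5 control livers in every panel, and on day 24 the groups overlap except for Slco1a4 and Slc22a7.

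The promoter windows of the carriers are given before their values, and 3 of the windows hold the C/EBP or STAT5 letters marked below. Each window is RefSeq's (build GRCr8), runs from 250 bases before to 50 after the annotated start, and was found for 7 of 7 genes. Slc10a1 lies at chr6:106357895-106358194 (minus strand), Slco1b2 at chr4:176282334-176282633 (plus strand) and Slco2b1 at chr1:163408016-163408315 (minus strand). Capitals mark the C/EBP letters TTGCNNAA and the STAT5 letters TTCNNNGAA, searched on both strands.
Slc10a1: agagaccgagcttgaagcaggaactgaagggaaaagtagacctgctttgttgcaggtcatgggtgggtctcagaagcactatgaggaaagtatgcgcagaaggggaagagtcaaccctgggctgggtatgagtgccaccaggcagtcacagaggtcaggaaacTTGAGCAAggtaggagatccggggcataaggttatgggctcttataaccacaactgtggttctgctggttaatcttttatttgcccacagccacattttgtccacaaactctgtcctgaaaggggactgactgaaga
Slco1b2: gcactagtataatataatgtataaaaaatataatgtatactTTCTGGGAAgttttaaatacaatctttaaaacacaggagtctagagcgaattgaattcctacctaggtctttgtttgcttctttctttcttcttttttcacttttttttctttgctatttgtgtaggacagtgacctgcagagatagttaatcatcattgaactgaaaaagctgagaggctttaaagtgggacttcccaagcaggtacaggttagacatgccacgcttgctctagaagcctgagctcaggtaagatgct
Slco2b1: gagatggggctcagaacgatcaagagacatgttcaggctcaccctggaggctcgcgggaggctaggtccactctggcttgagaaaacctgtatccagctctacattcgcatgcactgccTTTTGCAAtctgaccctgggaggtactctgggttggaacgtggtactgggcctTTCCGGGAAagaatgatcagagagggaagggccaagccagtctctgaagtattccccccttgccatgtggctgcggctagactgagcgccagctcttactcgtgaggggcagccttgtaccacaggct
The C/EBP letters start at base 164 of the Slc10a1 window and 120 of the Slco2b1 window, both on the opposite strand, so that they read TTNNGCAA as printed. The STAT5 letters start at base 42 of the Slco1b2 window and 173 of the Slco2b1 window. The C/EBP letters occur in 10.6% and the STAT5 letters in 8.87% of the 33469 rat promoter windows of this length. Slc22a8 (chr1:214927034-214927333, plus strand), the carrier with the lowest log2 change, holds neither, and nor do Slco1a1 (chr4:176681943-176682242, minus strand) and Slco1a4 (chr4:176495797-176496096, minus strand), neighbours of the same subfamily that are compared below.
Slc22a8: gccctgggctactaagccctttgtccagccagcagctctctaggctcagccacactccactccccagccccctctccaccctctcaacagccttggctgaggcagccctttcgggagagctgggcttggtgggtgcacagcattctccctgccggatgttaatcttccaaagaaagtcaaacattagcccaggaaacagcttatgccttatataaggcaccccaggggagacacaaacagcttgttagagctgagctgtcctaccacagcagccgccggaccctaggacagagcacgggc
Slco1a1: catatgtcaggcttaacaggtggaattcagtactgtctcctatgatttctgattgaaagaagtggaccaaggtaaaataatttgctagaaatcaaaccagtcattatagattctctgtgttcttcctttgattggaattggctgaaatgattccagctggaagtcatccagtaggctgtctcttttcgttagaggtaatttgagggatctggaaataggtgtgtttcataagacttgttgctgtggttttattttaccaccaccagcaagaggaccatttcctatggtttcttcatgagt
Slco1a4: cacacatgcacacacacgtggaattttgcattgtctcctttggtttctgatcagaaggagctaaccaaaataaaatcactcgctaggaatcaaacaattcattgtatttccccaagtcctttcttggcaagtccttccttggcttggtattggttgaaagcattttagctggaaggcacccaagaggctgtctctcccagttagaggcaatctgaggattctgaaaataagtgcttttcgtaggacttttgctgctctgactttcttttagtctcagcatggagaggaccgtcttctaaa
The windows of Slco1a1 and Slco1a4 aligned with 66.6% identity, against 46.9% to 52.6% for the other pairs of members. On both strands the HNF4 core CAAAGT (14.8% of all windows), the antioxidant response core TGACNNNGC (12.1%) and the FXR inverted repeat (0.0269%) were found in 0 of the 7. The HNF1 letters GTTAAT were not among the motifs counted, so their share of all windows is not given. They can be read as printed in the windows of Slc10a1, Slco1b2 and Slc22a8. All of these are matches of letters in one window and were not tested against the changes below.

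Slc10a1, the sodium-driven bile acid carrier, showed a fall that deepened over the days of dosing. On day 4 its signal was 4110, 3342, 3380 and 3023 in the 4 livers at 80 mg/kg, against 4052, 4413, 4721, 5061 and 5495 in the 5 control livers, and 1 treated liver reached above the lowest control. On day 8 it was 1924, 1769, 1464, 1831 and 2832 at 80 mg/kg, against 4416, 4669, 4761, 5220 and 4804 in controls, with no overlap. On day 15 it was 1559, 555, 1332, 756 and 1688 at 80 mg/kg, against 4234, 4245, 4514, 4448 and 3968 in controls, again with no overlap. On day 24 it was 3265, 3811, 4173, 4334 and 3842 at 80 mg/kg and 3994, 3712, 3992 and 4007 in controls, and the ranges overlapped. The log2 change against control was -0.46 ± 0.17 (change ± SE here and below, adjusted p = 0.0333) on day 4, -1.31 ± 0.16 (adjusted p = 8.79e-10) on day 8, -1.99 ± 0.16 (3.96-fold lower, adjusted p = 1.11e-15) on day 15 and -0.021 ± 0.17 (adjusted p = 0.955) on day 24. The day 4 call rested on single arrays: it was lost without control replicate 3 (adjusted p = 0.0505), 4 (0.0645) or 5 (0.0847), or without 80 mg/kg replicate 3 (0.0685), 4 (0.0681) or 5 (0.120).

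Slco1b2, the rodent counterpart of the human OATP1B carriers, which take up bilirubin as well as bile acids, followed a similar course. Its signal on day 15 was 1704, 1095, 1625, 1006 and 1361 at 80 mg/kg, against 2730, 2641, 3252, 3157 and 3067 in controls. All 5 treated livers lay below all 5 controls. Earlier, on day 4, it was 2731, 1963, 2456 and 1921 at 80 mg/kg and 2391, 2910, 3343, 3053 and 2943 in controls, with 2 of the 4 treated livers inside the control range. On day 8 it was 1398, 1704, 1684, 1117 and 1962 at 80 mg/kg, against 2296, 2619, 2783, 3113 and 2875 in controls, with the groups apart. On day 24 it was 2864, 3228, 3380, 3304 and 2798 at 80 mg/kg and 2817, 2395, 2488 and 2854 in controls, where 4 of the 5 treated livers lay above every control. The log2 change was -0.38 ± 0.13 (adjusted p = 0.0226) on day 4, -0.82 ± 0.12 (adjusted p = 1.47e-07) on day 8, -1.15 ± 0.12 (2.23-fold lower, adjusted p = 8.98e-12) on day 15 and 0.24 ± 0.13 (adjusted p = 0.226) on day 24. The day 4 call was lost without control replicate 3 (adjusted p = 0.0681) and without 80 mg/kg replicate 3 (0.0952) or 5 (0.119).

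Slco1a1 and Slco1a4 encode Oatp1a1, which in rodents is more abundant in male liver, and Oatp1a4, which also carries cardiac glycosides such as digoxin. On day 4 the Slco1a1 signal was 708, 541, 574 and 435 at 80 mg/kg, against 783, 774, 719, 801 and 789 in controls. On the same day the Slco1a4 signal was 3347, 2757, 2143 and 1892 at 80 mg/kg and 2598, 2210, 2395, 2355 and 3097 in controls. All 4 treated livers were below every control for Slco1a1, while for Slco1a4 the treated livers held both the highest and the lowest value. On day 15 Slco1a1 was 286, 255, 320.0, 217 and 303 at 80 mg/kg, against 771, 927, 898, 692 and 686 in controls. Slco1a4 was then 1072, 554, 852, 623 and 854 at 80 mg/kg, against 2035, 3681, 2665, 2453 and 2596 in controls. Neither gene's groups overlapped on that day. On day 8, in between, Slco1a1 was 424, 351, 386, 289 and 527 at 80 mg/kg, against 759, 799, 814, 918 and 783 in controls, where the groups were already apart. Changes of Slco1a1 were -0.47 ± 0.13 (adjusted p = 0.00436), -1.07 ± 0.12 (adjusted p = 3.34e-10) and -1.53 ± 0.12 (2.88-fold lower, adjusted p = 1.94e-15) on days 4, 8 and 15. Changes of Slco1a4 were -0.023 ± 0.19 (adjusted p = 0.947), -0.69 ± 0.18 (adjusted p = 0.00101) and -1.78 ± 0.18 (3.43-fold lower, adjusted p = 2.32e-12) on the same days. Without 80 mg/kg replicate 5 the day 4 change of Slco1a1 was -0.36 (adjusted p = 0.0563).

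On day 24, after the drug-free period, Slco1a4 was 1344, 1409, 1953, 2075 and 1816 at 80 mg/kg, against 2359, 2772, 2909 and 2756 in controls. Every treated liver was still below every control liver, and the log2 change was -0.67 ± 0.19 (adjusted p = 0.0164). The call was lost without 80 mg/kg replicate 1 (adjusted p = 0.0521) or replicate 2 (adjusted p = 0.0543). The groups overlapped for Slco1a1 on that day, at 648, 612, 629.7, 562 and 697 with 80 mg/kg and 838, 677, 754 and 811 in controls (-0.29 ± 0.13, adjusted p = 0.142).

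Slco2b1, a carrier of steroid sulfates that is found in many tissues besides liver, was lower from the first time point on. On day 4 its signal was 371, 311, 293 and 269 at 80 mg/kg, against 485, 443, 472, 471 and 526 in controls. On day 15 it was 286, 186, 237, 133 and 273 at 80 mg/kg, against 581, 532, 482, 537 and 466 in controls. The groups were apart on both days, and replicate 4 was the lowest treated liver on day 15. On day 8 it was 288, 236, 244, 256 and 318 at 80 mg/kg, against 613, 540.2, 482, 580.0 and 594 in controls, again apart. On day 24 it was 555, 506, 605, 529 and 616 at 80 mg/kg and 596, 685, 669 and 600.5 in controls, with 2 treated livers inside the control range. The log2 change was -0.63 ± 0.12 (adjusted p = 7.93e-05) on day 4, -1.07 ± 0.12 (adjusted p = 7.02e-11) on day 8, -1.27 ± 0.12 (2.41-fold lower, adjusted p = 1.27e-13) on day 15 and -0.18 ± 0.12 (adjusted p = 0.350) on day 24. Slco2b1 was also the 1 member called different between control livers of day 24 and day 4 (log2 difference 0.41 ± 0.12, adjusted p = 0.0122). It read 596, 685, 669 and 600.5 in control livers on day 24, against 485, 443, 472, 471 and 526 on day 4. In that comparison of controls 10.7% of all genes and 1 of the 7 carriers were called higher. Slc10a1 was not called there by limma (-0.27 ± 0.17, adjusted p = 0.268). Its controls on day 24 (3712 to 4007) nevertheless all lay below those on day 4 (4052 to 5495), as for 7.8% of all genes. The actin 3'/5' ratio of the control arrays, a measure of how whole the RNA was, reached 5.03 on day 4 and lay between 6.04 and 9.76 on day 24. With that ratio as a covariate the difference of Slco2b1 was 0.38 and did not pass (adjusted p = 0.161), and with a common median it was 0.37 and did not pass either (adjusted p = 0.0514).

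Slc22a8 encodes Oat3, best known from the kidney tubule and also expressed in rat liver. On day 4 its signal was 481, 378, 475 and 398 at 80 mg/kg, against 777, 1167, 1253, 1239 and 1360 in controls. On day 8 it was 119.9, 118, 88.1, 47.6 and 166 at 80 mg/kg, against 1083, 1098, 894, 1007 and 1530 in controls. On day 15 it was 117, 63.6, 129, 27.8 and 111 at 80 mg/kg, against 965, 957, 1144, 917 and 989.8 in controls. The treated and control livers were apart on all 3 days. On day 24 it was 1022, 1260, 1354, 1081 and 1106 at 80 mg/kg and 680.4, 1288, 1173 and 908 in controls, with 4 of the 5 treated livers inside the control range and 1 above it. The log2 change was -1.40 ± 0.29 (adjusted p = 0.000171) on day 4, -3.47 ± 0.27 (11.1-fold lower, adjusted p = 6.08e-15) on day 8, -3.66 ± 0.27 (12.6-fold lower, adjusted p = 1.47e-16) on day 15 and 0.24 ± 0.29 (adjusted p = 0.636) on day 24. Of all genes tested, 0.0932% had a lower log2 change than Slc22a8 on day 15.

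Slc22a7 encodes Oat2, an anion carrier of hepatocytes. On day 4 its signal was 881, 840.0, 976 and 748 at 80 mg/kg and 1037, 987, 921, 932 and 1022 in controls, and 1 treated liver lay inside the control range. On day 8 it was 783, 666, 651, 884 and 852 at 80 mg/kg, against 988, 1013, 1095, 1094 and 1024 in controls, and the groups were apart. On day 15 its signal was 675, 477, 587, 542 and 622 at 80 mg/kg, against 1041, 1095, 1184, 1109 and 1018 in controls. On day 24 it was 802, 755, 881, 741 and 889 at 80 mg/kg, against 1115, 1068, 894 and 1026 in controls. The groups did not overlap on either day, although on day 24 the highest treated liver was close to the lowest control. The log2 change was -0.19 ± 0.085 (adjusted p = 0.0882) on day 4, -0.45 ± 0.080 (adjusted p = 5.13e-06) on day 8, -0.92 ± 0.080 (1.89-fold lower, adjusted p = 3.79e-14) on day 15 and -0.33 ± 0.085 (adjusted p = 0.00876) on day 24. Slc22a7 was not called on day 4, but was without 80 mg/kg replicate 4 (adjusted p = 0.0355) and with arrays shifted to a common median (adjusted p = 0.0224).

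**Figure D2:**
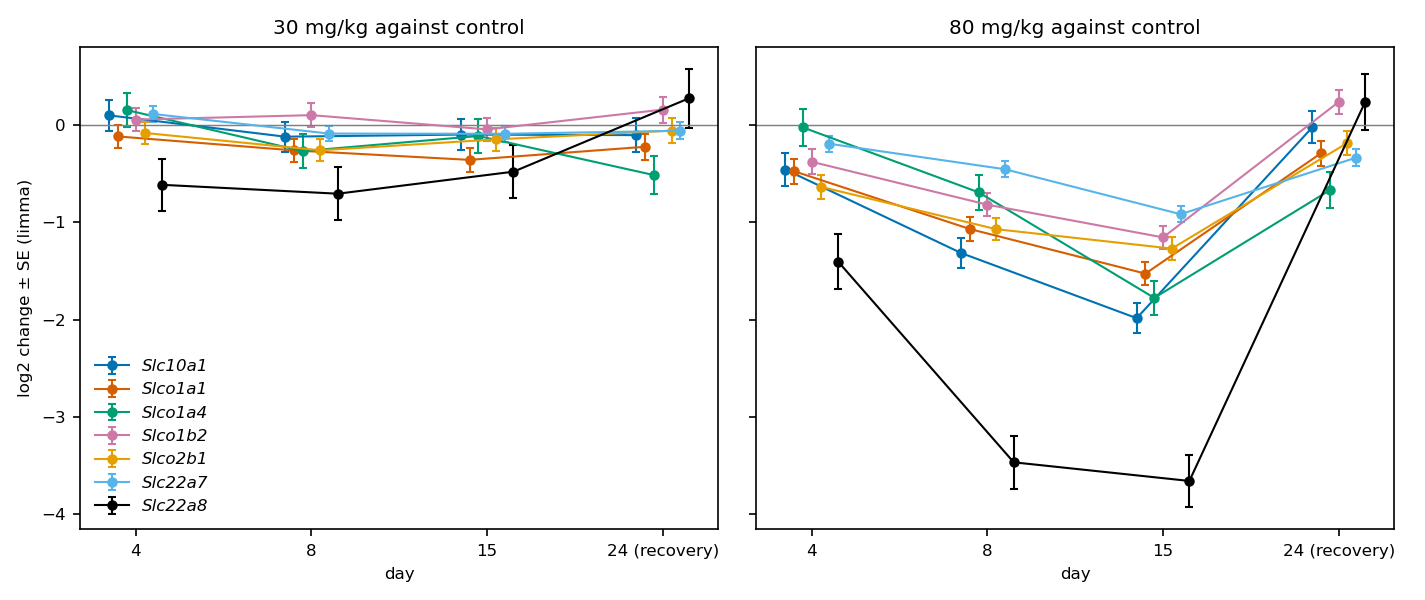
Log2 change against the control of the same day with its standard error (limma), for each carrier and day, at 30 mg/kg on the left and 80 mg/kg on the right. At 80 mg/kg the 7 lines reach their lowest point on day 15, with Slc22a8 at -3.66 and the other 6 between -1.99 and -0.92, and return towards 0 on day 24.

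Within each group the animals were not alike, and on day 15 at 80 mg/kg the same livers were low for every carrier. Replicates 2 and 4 were the 2 lowest of the 5 arrays for 7 of 7 members. The share of all genes with the same 2 arrays lowest was not counted, so this order may not be particular to the carriers. Their summed signals of 7 biliary markers were 1500 and 1494, against 1008, 1185 and 1065 in replicates 1, 3 and 5. Their summed hepatocyte markers, at 36004 and 36421, lay within the range of the other 3 arrays (35130 to 50477). The actin 3'/5' ratios of these 2 arrays, 4.22 and 3.77, were the lowest of the 5, which reached 4.93. Without these 2 arrays 7 of 7 carriers were still called lower on day 15, at -1.49 for Slc10a1 and -3.06 for Slc22a8. The part of the markers in these values was not tested.

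Every 80 mg/kg liver was below every control for 3 of 7 carriers on day 4, 6 on day 8, 7 on day 15 and 2 on day 24, beside 6.62%, 11.3%, 14.6% and 3.79% of all genes. The exception on day 8 was Slco1a4, at 2046, 1186, 1517, 1331 and 1624 with 80 mg/kg and 2024, 1975, 2831, 3235 and 2378 in controls, where 1 treated liver reached into the control range.

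The carriers did not all fall by the same amount. For each pair of members the log2 ratio within each array was compared between 80 mg/kg and control livers by an exact two-sided permutation test, over 84 tests (21 pairs on 4 days) chosen after the values had been seen. After adjustment over the 84, 9 of 21 pairs differed on day 4, 11 on day 8, 13 on day 15 and 8 on day 24. Slc22a8 differed from each of the other 6 on days 4, 8 and 15. On day 15 its log2 change was lower than theirs by 1.67 (Slc10a1) to 2.74 (Slc22a7), with an exact p = 0.00794 for each (the smallest that 5 against 5 livers allow) and an adjusted p = 0.0222. The changes of Slco1a1 and Slco1a4 (Slco1a1 minus Slco1a4) differed on day 4, by -0.45 (adjusted exact p = 0.0488), and on day 15 the difference was 0.25 (adjusted exact p = 0.242). On day 24 the change of Slco1a4 was lower than that of Slco1b2 by 0.91 and that of Slc22a8 by 0.90 (adjusted exact p = 0.0222 for both).

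Between days, the effect of 80 mg/kg was set against itself in interaction terms of the same fit. From day 4 to day 15 it deepened for 7 of 7 carriers, beside 10.1% of all genes, by -2.26 ± 0.39 for Slc22a8, -1.75 ± 0.26 for Slco1a4 and -1.53 ± 0.23 for Slc10a1 at the large end and -0.64 ± 0.17 for Slco2b1 at the small end. Without the 2 lowest livers of day 15 the call of Slco2b1 was lost (-0.34, adjusted p = 0.0779). The step from day 4 to day 8 passed for Slc22a8 (-2.07 ± 0.39, adjusted p = 0.00218), Slc10a1 (-0.86 ± 0.23, adjusted p = 0.0176) and Slco1a1 (-0.59 ± 0.18, adjusted p = 0.0337), 3 of 7 against 3.53% of all genes. The term of Slc10a1 was lost without 80 mg/kg day 4 replicate 2 (adjusted p = 0.0546), after quantile normalization (-0.59, adjusted p = 0.120) and with the actin covariate (-0.75, adjusted p = 0.0722). That of Slco1a1 was lost without control day 4 replicate 1 or 3, control day 8 replicate 4, 80 mg/kg day 4 replicate 2 or 4, or 80 mg/kg day 8 replicate 2, 3 or 4, with adjusted p from 0.0512 to 0.122.

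The step from day 8 to day 15 passed for Slco1a4 (-1.09 ± 0.25, adjusted p = 0.00995) and Slc22a7 (-0.46 ± 0.11, adjusted p = 0.0145), 2 of 7 against 1.94% of all genes. Neither passed without the 2 lowest livers of day 15 (Slco1a4 at -0.83, adjusted p = 0.0980). For Slc10a1 the term was -0.67 ± 0.22 (adjusted p = 0.0598), and it passed without 80 mg/kg day 8 replicate 3 (adjusted p = 0.0326) or day 15 replicate 1 (0.0180), 3 (0.0467) or 5 (0.0143), and after quantile normalization (-0.73, adjusted p = 0.0331). For Slco1a1 it was -0.46 ± 0.17 (adjusted p = 0.103), and it passed without 80 mg/kg day 8 replicate 4 (adjusted p = 0.0469). For Slc22a8 it was -0.19 ± 0.38 (adjusted p = 0.817), with changes against control of -3.47 on day 8 and -3.66 on day 15.

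After the 10 days without drug the effect of 80 mg/kg was smaller than on day 15 for 7 of 7 carriers, and 16.6% of all genes were called in that direction. The difference (day 24 minus day 15) ran from 0.58 ± 0.12 for Slc22a7 to 3.90 ± 0.39 for Slc22a8, with 1.96 ± 0.23 for Slc10a1 and 1.39 ± 0.18 for Slco1b2. The largest adjusted p among the 7 was 0.000419, for Slco1a4. On day 24 the arrays of all doses had a higher actin 3'/5' ratio (5.84 to 9.76 over 13 arrays) than on days 4 to 15 (3.77 to 6.37 over 44 arrays). Fitted with that ratio as a covariate, which was added after the data had been seen, 7 of 7 carriers still differed between the 2 days.

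At 30 mg/kg the median change of the 7 carriers was 0.058, -0.26, -0.11 and -0.057 on days 4, 8, 15 and 24 (log2, 30 mg/kg over control). None was called by limma on day 4, 8, 15 or 24, where 0.783%, 0.233%, 4.6% and 0.0932% of all genes were called in either direction. At an unadjusted p under 0.05 there were 1, 3, 1 and 1 of 7, beside 1484, 1148, 2003 and 1093 of the 10725 genes tested. Slc22a8 had the lowest log2 change of the 7 on days 4, 8 and 15. It read 896, 756, 445, 963 and 787 at 30 mg/kg on day 4, against 777, 1167, 1253, 1239 and 1360 in controls, with overlap, for a log2 change of -0.61 ± 0.27 (adjusted p = 0.285). Its change was -0.70 ± 0.27 (adjusted p = 0.274) on day 8 and -0.48 ± 0.27 (adjusted p = 0.339) on day 15, the last called lower where only the groups compared were fitted (adjusted p = 0.0337). Slco1a1 on day 15 read 617, 680.2, 522, 752 and 537 at 30 mg/kg, against 771, 927, 898, 692 and 686 in controls (-0.36 ± 0.12, adjusted p = 0.0767). The lowest adjusted p of the 7 carriers over the 4 days was this one, and it fell below 0.05 without 30 mg/kg replicate 4 (adjusted p = 0.0327) and with array weights (0.0430).

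For the other carriers too the ranges at 30 mg/kg on day 15 overlapped those of the controls. The log2 change on that day was below 0 for 7 of 7 carriers, with a median of -0.11, beside 0.0081 over all genes. Slc10a1 read 3980, 4182, 4180, 3998 and 3685 at 30 mg/kg and 4234, 4245, 4514, 4448 and 3968 in controls. Only the control at 3968 lay below the highest 30 mg/kg liver. Slco1b2 read 2738, 2901, 2973, 3018 and 2746 at 30 mg/kg and 2730, 2641, 3252, 3157 and 3067 in controls. Slc22a7 read 1083, 1061, 1021, 1036 and 922 at 30 mg/kg and 1041, 1095, 1184, 1109 and 1018 in controls. The log2 changes of these 3 were -0.097 ± 0.16, -0.043 ± 0.12 and -0.088 ± 0.080. Slco2b1 gave -0.26 ± 0.12 on day 8 and -0.15 ± 0.12 on day 15 (adjusted p = 0.393 and 0.535).

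Slco1a4 at 30 mg/kg on day 24 was the single carrier and day at that dose in which the groups did not overlap, with 2246, 1724, 1594 and 2046 at 30 mg/kg, against 2359, 2772, 2909 and 2756 in controls. The change of -0.51 ± 0.20 did not pass (adjusted p = 0.339), and 1.72% of all genes had every 30 mg/kg array below every control on that day. Slco1a4 is also 1 of the 2 carriers that were called lower at 80 mg/kg on day 24, and both comparisons share the same 4 control livers.

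Set against 30 mg/kg on the same day, 80 mg/kg was lower for 6 of 7 carriers on day 4, 7 on day 8, 7 on day 15 and 1 on day 24, beside 6.84%, 14.6%, 18.3% and 2.23% of all genes called lower. On day 15 the difference between the doses was -3.18 ± 0.27 for Slc22a8, -1.89 ± 0.16 for Slc10a1 and -0.83 ± 0.080 for Slc22a7, and all arrays of 80 mg/kg lay below all arrays of 30 mg/kg for 7 of 7 carriers, as for 13.6% of all genes. The day 4 count came to 3 without 80 mg/kg replicate 3, 1 without 80 mg/kg replicate 5 and 1 after quantile normalization. On day 8 Slco1a4 (-0.42 ± 0.18, adjusted p = 0.0453) kept its call under 9 of 22 alternatives. After quantile normalization it was at -0.19 (adjusted p = 0.415). The 1 carrier of day 24, Slc22a7 (-0.28 ± 0.085, adjusted p = 0.0383), was lost without any one of 30 mg/kg replicates 1, 3 and 4 or 80 mg/kg replicates 1, 2 and 4 (adjusted p from 0.0564 to 0.120).

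Ordered by mean signal, 80 mg/kg on day 15 was the lowest of the 12 groups and 80 mg/kg on day 8 the next for each of the 7 carriers. Next above came 80 mg/kg on day 4 for Slc10a1, Slco1a1, Slco1b2, Slco2b1 and Slc22a8. For Slc22a7 the 80 mg/kg livers of day 24 lay between days 4 and 8, at 811, with 857 on day 4 and 761 on day 8 (geometric means). Most neighbours in these orders overlapped. The ranges of neighbouring groups were apart between 80 mg/kg on days 4 and 8 for Slc10a1 and Slc22a8, between 80 mg/kg on days 8 and 15 for Slco1a4, and between the 80 and 30 mg/kg livers of day 4 for Slco2b1. Over the 19 control arrays of all days Slc10a1 ranged over 3712 to 5495, Slco1a1 over 677 to 927, Slco1b2 over 2296 to 3343 and Slc22a8 over 680 to 1530.

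Slco1a4, Slco1b2, Slco2b1 and Slc22a8 each had a second, dimmer probe set. On day 15 at 80 mg/kg the second set gave -1.62 ± 0.19 for Slco1a4, -1.19 ± 0.13 for Slco1b2, -1.69 ± 0.18 for Slco2b1 and -4.28 ± 0.30 for Slc22a8, all lower as on the first set. On day 24 the second set of Slco1a4 was again called lower (-0.72 ± 0.20, adjusted p = 0.0189). The 2 sets of Slco2b1 differed in size on day 8, with -1.07 ± 0.12 on the brighter and -0.65 ± 0.18 on the dimmer set. On day 4 the second set of Slc22a8 gave -2.36 ± 0.31, beside -1.40 ± 0.29 on the first. The mean log2 signal of that second set over all arrays was 6.78, against 9.20 on the first, so the size of its falls is less certain.

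**Figure D3:**
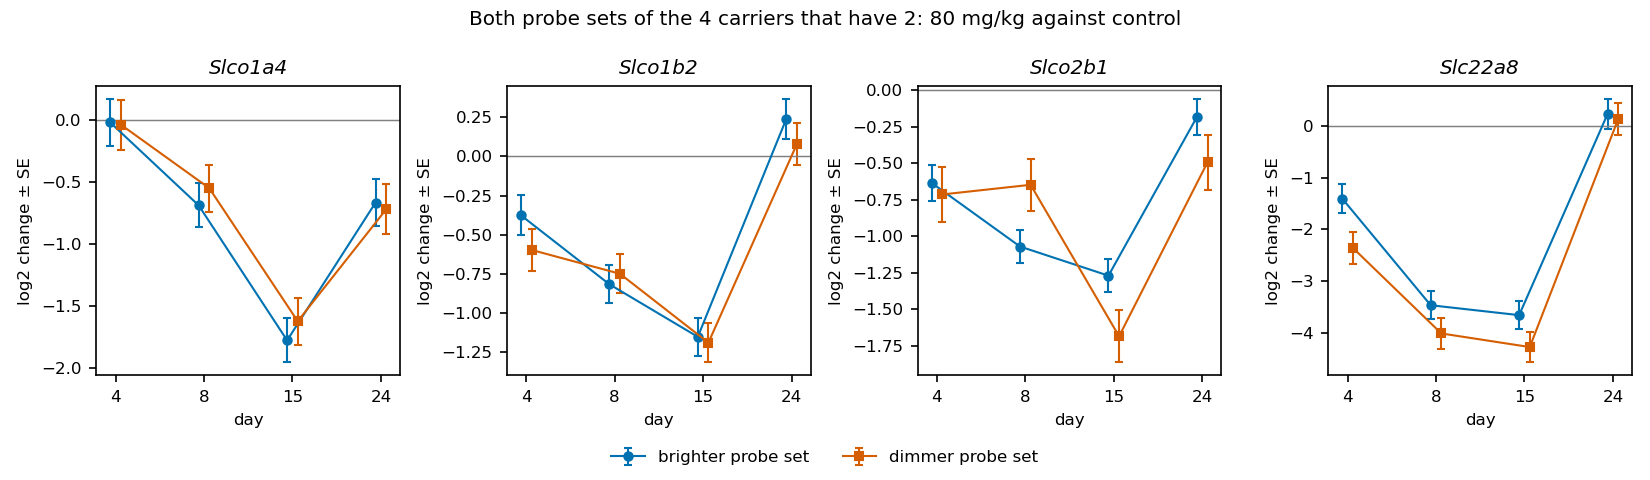
Log2 change at 80 mg/kg against control with its standard error (limma) on both probe sets of the 4 carriers that have 2, by day (the vertical axes differ between panels). Both sets of each carrier are lowest on day 15, and on day 24 both sets of Slco1a4 remain near -0.72 to -0.67.

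By RefSeq's gene order (GRCr8), Slco1b2, Slco1a4 and Slco1a1 follow each other directly on chromosome 4, and Slc22a8 lies among other Slc22 genes on chromosome 1. Ust5r, a rat Slc22 relative that lies 2 genes before Slc22a8, averaged 174 at 80 mg/kg on day 15, against 1340 in controls (geometric means, -2.95 ± 0.24, adjusted p = 2.64e-15). Its changes on days 4, 8 and 24 were -1.05 ± 0.25, -2.66 ± 0.24 and 0.016 ± 0.25. Slc22a25, which lies between them, was lower by a smaller amount on day 15 (-0.83 ± 0.21, adjusted p = 0.000559). Slc3a2 and Wdr74, on the other side of Slc22a8, were higher (1.92 and 1.20). The other 4 Slco relatives beside Slco1b2, Slco1a4 and Slco1a1 (Slco1c1, Slco1a3, Slco1a6 and Slco1a5) were not among the genes tested. Whether a probe set also binds transcripts of a relative was not tested.

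**Figure D4:**
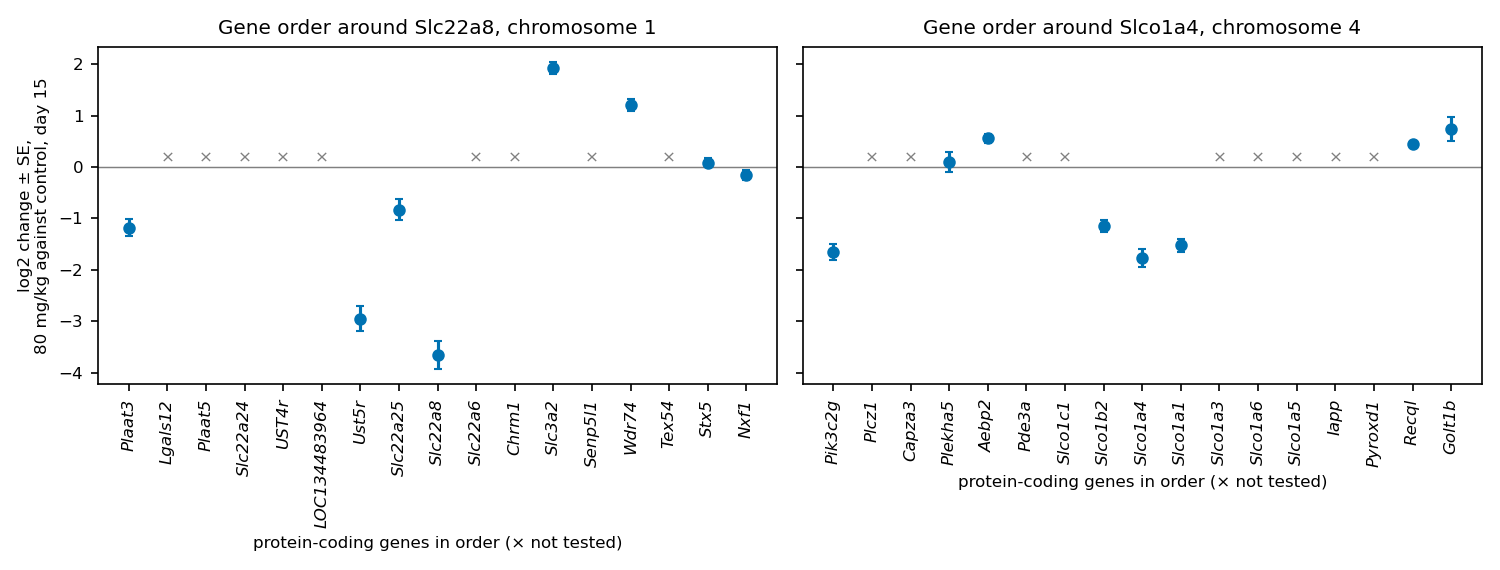
Log2 change at 80 mg/kg against control on day 15 with its standard error (limma), for the protein-coding genes around Slc22a8 and around Slco1a4 in their order on the chromosome (a cross marks a gene that was not tested). Ust5r and Slc22a8 lie at -2.95 and -3.66, Slco1b2, Slco1a4 and Slco1a1 between -1.78 and -1.15, and Slc3a2 and Wdr74 lie above 0.

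The genes most like each carrier were taken by Pearson correlation over the 12 group means of log2 signal, which share the same arrays and the same strong day 15 group, so the values are descriptions. For Slc10a1 they were Ndrg2 (r = 0.988) and the retinol dehydrogenase Rdh7 (0.987). For Slco1a1 they were Slc25a13, the mitochondrial aspartate and glutamate carrier (0.990), and hepatic lipase, Lipc (0.987). For Slco1b2 they were Aass, an enzyme of lysine breakdown (0.991), and ferrochelatase, Fech (0.986). Slco1a4 stood nearest to Alad, an enzyme of haem synthesis (0.972), and to Slc27a5, the bile acid CoA ligase (0.955). Slco2b1 stood nearest to Inhba, a subunit of activin (0.990), and Trim2 (0.990). Slc22a7 stood nearest to dermatopontin, Dpt (0.984), and Serpina10 (0.974), and Slc22a8 to Ust5r (0.996) and the oxidase Nox4 (0.993). All 14 were called lower at 80 mg/kg on day 15, with log2 changes between -4.13 ± 0.45 for Nox4 and -0.55 ± 0.073 for Fech. The mean of Nox4 at 80 mg/kg, 3.03, lies below 17.1, the signal used to filter probe sets, so the size of its change is uncertain. Among the carriers themselves r over the 12 group means ran from 0.677 to 0.968.

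The rest of the transport system was read from lists in which every gene tested is counted. On day 15 at 80 mg/kg 20.5% of all genes were called lower and 38.8% higher, with a median log2 change of 0.16. On days 4, 8 and 24 the shares were 9.19%, 16.6% and 3.08% lower and 18.3%, 34.2% and 7.15% higher. Of 17 other solute carriers of organic ions and bile acids tested (38 listed), 9 were lower and 3 higher at 80 mg/kg on day 15, with a median of -0.50. Slc22a17 (-1.50 ± 0.093) and the phosphate family member Slc17a2 (-1.45 ± 0.12) were lower besides Ust5r, and the carnitine carrier Slc22a5 (1.37 ± 0.20), Slc22a15 (1.33 ± 0.42) and Slc10a3 (0.34 ± 0.14, adjusted p = 0.0377) were higher. Slc10a3 was lost without control replicate 1, 3 or 4 or 80 mg/kg replicate 2 or 5 (adjusted p up to 0.110) and after quantile normalization (0.438). The counts on days 4, 8 and 24 were 5 lower and 2 higher, 9 and 4, and 0 and 0 (limma, 0 also at an unadjusted p under 0.05). Both genes higher on day 4, Slc22a5 and Slc22a15, lost that call without 80 mg/kg replicate 4 or 5 (adjusted p from 0.0785 to 0.133), after quantile normalization and with a common median.

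Among 12 efflux carriers tested, 4 were lower and 5 higher on day 15 at 80 mg/kg, with a median of 0.32. The counts on days 4, 8 and 24 were 3 lower and 5 higher, 3 and 5, and 0 and 2. The 3 lower on day 4 came to 1 without control replicate 1 or 3 or 80 mg/kg replicate 3, 4 or 5, and with the actin covariate, since Abcg5 and Abcg8 were then lost (adjusted p from 0.0527 to 0.187). Abcg8, 1 of the 3 lower on day 8, was lost without control replicate 1, 2 or 3 (adjusted p from 0.0550 to 0.116). It was also lost without 80 mg/kg replicate 1, 2, 4 or 5 (0.0537 to 0.0749) and without the filter (0.0512). Abcc3, 1 of the 2 higher on day 24, was lost without control replicate 2 or 3 or 80 mg/kg replicate 2, 3 or 4 (adjusted p from 0.0773 to 0.228), and also after quantile normalization (0.128), with a common median (0.0580), without the filter (0.0505), with an offset (0.0666) and where only the groups compared were fitted (0.186). On day 15 Abcc3 and Abcc4, which export bile acids and conjugates back into blood, were higher by 4.20 ± 0.39 (adjusted p = 2.34e-13) and 2.88 ± 0.19 (adjusted p = 7.29e-18), and the multidrug exporter Abcb1a by 1.96 ± 0.42. An offset of 3.31 took the day 24 change of Abcc3 from 1.26 to 0.82, so its signals include low ones. The size of its changes is therefore uncertain. Abcg5 (-2.39 ± 0.35) and Abcg8 (-2.06 ± 0.43), which together export sterols, and Abcc6 (-1.65 ± 0.11) were lower. Abcb11, the canalicular bile salt export pump, named here for its place in the pathway after its values were seen, averaged 709.9 at 80 mg/kg, against 1392 in controls on day 15 (-0.97 ± 0.17, adjusted p = 3.12e-06). On day 24 Abcb11 was not called (0.31 ± 0.18, adjusted p = 0.273).

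Of 14 genes of bile acid synthesis and conjugation tested, 10 were lower and 1 higher at 80 mg/kg on day 15 (median -0.74). The counts on days 4, 8 and 24 were 3 lower, 10 lower and 0, with none higher (limma; at an unadjusted p under 0.05 they were 4, 10 and 2 lower and 0 higher). Amacr (-1.77 ± 0.14) and Acox2 (-1.58 ± 0.12), which shorten the sterol side chain in peroxisomes, and the ligase Slc27a5 (-1.40 ± 0.15) were the lowest by log2 change. Cyp7a1, the rate-limiting enzyme of the classical pathway, was the 1 gene called higher, by 0.70 ± 0.28 (adjusted p = 0.0262). That call was lost without 80 mg/kg replicate 2, 3 or 4 or control replicate 3, 4 or 5, with adjusted p from 0.0520 to 0.0929, without both replicates 2 and 4 at 80 mg/kg (0.178) and with a common median (0.0761).

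Of 22 known or presumed regulators of these carriers tested, 11 were lower and 3 higher at 80 mg/kg on day 15, with a median of -0.55. Lower were Fgfr4, the liver receptor of the gut hormone Fgf15 (-1.28 ± 0.13), the nuclear receptor partner Rxra (means 9.68 at 80 mg/kg and 23.5 in controls), and the prolactin receptor Prlr (-1.24 ± 0.48, adjusted p = 0.0233). Prlr was lost without control replicate 1 or 2 or 80 mg/kg replicate 2 or 4 (adjusted p up to 0.0798) and as a mean of its probe sets (0.176). Ahr, the receptor of dioxin (means 31.5 at 80 mg/kg and 7.84 in controls), Nfe2l2, the activator of antioxidant genes (0.85 ± 0.16), and Stat5a (0.27 ± 0.11, adjusted p = 0.0400) were higher. The lower mean of Rxra and that of Ahr lie below 17.1, the signal used to filter probe sets, so no fold is given for them. Stat5a was lost without any one of control replicates 2, 4 and 5 or 80 mg/kg replicates 1, 2 and 5 (adjusted p up to 0.120) and after quantile normalization (0.731). Chosen for their roles after their values were seen, Hnf4a (-0.57 ± 0.080), Cebpa (-0.80 ± 0.16) and Nr1h4 (-0.55 ± 0.14) were called lower on day 15, and Nr0b2, the repressor that FXR induces, was not called (0.45 ± 0.53, adjusted p = 0.481). On days 4 and 8 the counts were 5 lower and 2 higher, and 9 and 1. On day 24 none of the 22 was called by limma, and 2 had an unadjusted p under 0.05.

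Of 10 genes that place carriers in the membrane or hold the sodium gradient, 5 were lower and 3 higher on day 15 at 80 mg/kg, with a median of 0.027. The sodium pump regulator Fxyd1 (-1.54 ± 0.11), the scaffold Nherf1 (-0.56 ± 0.087) and radixin, Rdx (-0.31 ± 0.058), were lower, while the actin linker ezrin, Ezr (1.68 ± 0.15), the motor Myo5b (1.52 ± 0.11) and the sodium pump subunit Atp1b3 (0.19 ± 0.068, adjusted p = 0.0126) were higher. Rdx was lost after quantile normalization (adjusted p = 0.0537), and Atp1b3 without 80 mg/kg replicate 2 (0.0698) and with a common median (0.603). The counts on days 4, 8 and 24 were 1 lower and 2 higher, 4 and 5, and 0 and 2. Rdx and Nherf1, 2 of the 4 lower on day 8, were lost as means of probe sets. Ezr, 1 of the 2 higher on day 24, was lost without control replicate 3, 4 or 5 or 80 mg/kg replicate 1, 2 or 4 (adjusted p from 0.0516 to 0.165), and also after quantile normalization (0.0960), with a common median (0.260), with the actin covariate (0.0826) and where only the groups compared were fitted (0.0693).

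**Figure D5:**
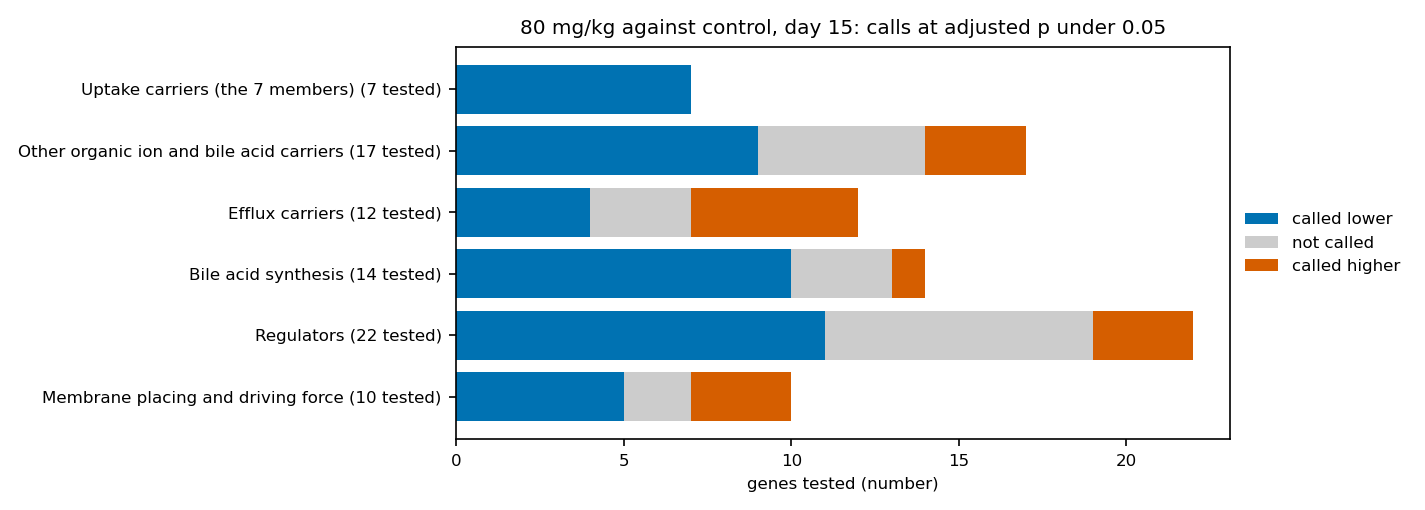
Number of genes tested in each list that were called lower, not called or called higher at 80 mg/kg against control on day 15 (limma, adjusted p under 0.05). All 7 uptake carriers are lower, while the 12 efflux carriers divide into 4 lower and 5 higher. Over all genes 20.5% were called lower and 38.8% higher.

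Markers of the cell types in liver moved with the same dose. Of 9 hepatocyte markers tested, 2, 7, 7 and 0 were lower on days 4, 8, 15 and 24 at 80 mg/kg and none was higher (limma; 2 of 9 were lower and 0 higher at an unadjusted p under 0.05 on day 24), with medians of 0.046, -0.45, -0.40 and -0.17 (log2). Their summed signal on day 15 was 35130 to 50477 at 80 mg/kg, against 45328 to 57795 in controls, and the asialoglycoprotein receptor genes Asgr1 (-1.17 ± 0.068) and Asgr2 (-1.05 ± 0.084) were among the lowest. Of 7 biliary markers tested, 5, 6, 7 and 3 were higher on the same days, beside 18.3%, 34.2%, 38.8% and 7.15% of all genes. Their sum on day 15 was 1008 to 1500 at 80 mg/kg, against 236 to 302 in controls. Macrophage markers were higher for 6 of 9 and lower for 1 on day 15, with sums of 4090 to 5054 at 80 mg/kg, against 3724 to 4382 in controls. Of the endothelial markers 1 of 5 was lower, of the stellate and matrix markers 2 of 8 were lower and 1 higher, and of 3 lymphocyte markers none was called (limma, 0 at an unadjusted p under 0.05) on that day. The endothelial call, Kdr, was lost without control replicate 5 (adjusted p = 0.0567), without both replicates 2 and 4 at 80 mg/kg (0.0728) and as a mean of probe sets (0.358). The lower call of Lrat was lost without 80 mg/kg replicate 5 (0.0843). The higher call of Des was lost without control replicate 2, 4 or 5 or 80 mg/kg replicate 2 (adjusted p up to 0.114), without both replicates 2 and 4 at 80 mg/kg (0.201), after quantile normalization (0.145), with a common median (0.113) and with the actin covariate (0.0501). After recovery, on day 24, the summed biliary markers were 261 to 319 at 80 mg/kg, against 99.6 to 169 in controls. The macrophage sums on day 24 were 3555 to 4788 at 80 mg/kg, against 2657 to 3542 in controls, with 8 of 9 markers higher. The control sums on day 4 were 3733 to 5053. Between control livers of day 24 and day 4, 7 of 9 macrophage markers were called lower on day 24, beside 9.84% of all genes. Against 30 mg/kg on day 24, 80 mg/kg was called higher for 1 of 9, beside 4.54% of all genes. Albumin, Alb, was not called on day 15, with means of 5845 at 80 mg/kg and 6944 in controls (-0.25 ± 0.14, adjusted p = 0.133). The part of these shifts in the carrier results was not tested.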

How the data were processed

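The authors deposited one table of MAS5 signal intensity for 31099 probe sets on 57 arrays; MAS5 is named in the submitters' processing notes, and its version and settings are not given in the sources used here. Per the deposited values, the trimmed mean of every array was near 100 (99.99), so the authors' intensities were scaled array by array. Log2 of the deposited intensities was computed here with no offset.

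Probe sets were named from the platform annotation (20826 with 1 symbol, 436 with several, 9837 with none), symbols being updated through RefSeq. Probe sets were kept (18677) where 4 or more arrays exceeded the overall median signal of 17.1, control probe sets were left out, and each of 10725 genes was read on its probe set of highest mean log2 signal. limma 3.58.1 in R 4.3.3 fitted 12 group means with a variance trend, with Benjamini-Hochberg adjustment across the genes tested. Arrays of a group correlated at a median r of 0.968 (lowest 0.958). The number of arrays per group limits the precision. No scan dates or batches are given in the sources used here.

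Context genes were named as the 3 called genes of largest log2 change on day 15 in each direction per list, and likeness genes as the 2 of highest correlation. The members, lists and motifs were chosen with earlier results of these data known. Quantile normalization, a common median, other filters, an offset, probe set means, array weights, fits of the compared groups alone, a replicate block and leaving out each array were tried as alternatives. The actin covariate, the exact tests of member pairs and 2 sets of left-out arrays were added after the data were seen. Deviations of same-numbered arrays of a day correlated with r between -0.0843 and 0.0947, so no shared deviation by replicate number was seen. This cannot show whether same-numbered animals were handled together. The code was tested on simulated data.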

Additional observations from a re-analysis of the deposited data

Results flagged for a closer look

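In 4 of 84 groups of 4 or 5 arrays (7 carriers in 12 groups), a single array stood apart from the others of its group by the gap-to-range rule, where about 1 in 20 is flagged by chance. For Slc10a1 these were control day 24 replicate 3, the lowest at 3712 with the others at 3992 to 4007, and 30 mg/kg day 8 replicate 2, the highest at 4810 with the others at 4226 to 4337. For Slco1a4 it was 30 mg/kg day 15 replicate 5, the lowest at 1721 with the others at 2444 to 2758. For Slc22a8 it was control day 4 replicate 1, the lowest at 777 with the others at 1167 to 1360.

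The effect of 80 mg/kg against control differed between days by the interaction terms of the limma fit. Day 8 minus day 4 gave -0.86 for Slc10a1, -0.59 for Slco1a1 and -2.07 for Slc22a8. Day 15 minus day 8 gave -1.09 for Slco1a4 and -0.46 for Slc22a7. Day 15 minus day 4 gave -1.53 for Slc10a1, -1.05 for Slco1a1, -1.75 for Slco1a4, -0.78 for Slco1b2, -0.64 for Slco2b1, -0.72 for Slc22a7 and -2.26 for Slc22a8. Day 24 minus day 15 gave 1.96 for Slc10a1, 1.24 for Slco1a1, 1.11 for Slco1a4, 1.39 for Slco1b2, 1.09 for Slco2b1, 0.58 for Slc22a7 and 3.90 for Slc22a8. The report names the arrays without which the earlier steps were lost.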

How the results depend on the processing

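Of the 62 calls on the carriers, 1563 values under the alternatives were computed: all 1563 kept their direction, 1477 kept their call and 86 lost it. With quantile normalization the carriers called lower at 80 against 30 mg/kg numbered 1 on day 4 and 0 on day 24. With a common median the number lower at 80 mg/kg against control on day 24 was 4, since Slco1a1 and Slco2b1 passed too, the number whose 80 mg/kg effect deepened between days 8 and 15 was 1, and no carrier was higher in controls of day 24 than of day 4 (0). That setting put the median change of all genes at 80 mg/kg at -0.050, -0.071, 0.026 and -0.21 on days 4, 8, 15 and 24 (0.081, 0.15, 0.16 and 0.044 as deposited). With array weights 1 carrier, Slco1a1, was lower at 30 mg/kg than in controls on day 15 (adjusted p = 0.0430) and 0 were lower at 80 than at 30 mg/kg on day 24. With only the compared groups fitted the same counts were 1, for Slc22a8 (-0.48, adjusted p = 0.0337), and 0, and the deepening between days 8 and 15 passed for 1. With the actin covariate the number lower at 80 against 30 mg/kg on day 24 was 0, the step from day 4 to day 8 passed for 1, and no control change passed on day 24 (0). Under that covariate the log2 differences were -0.28 for Slc22a7 at 80 against 30 mg/kg on day 24 (-0.28 without the covariate), -0.56 for Slco1a1 (-0.59) and -0.75 for Slc10a1 (-0.86) from day 4 to day 8, and 0.38 for Slco2b1 in controls (0.41). Without the 2 day 24 arrays of highest actin ratio the count at 80 against 30 mg/kg on day 24 was 0. Without the 2 lowest arrays of 80 mg/kg on day 15 the step from day 8 to day 15 passed for 0 carriers, and that of Slco2b1, not called in either case, turned to 0.10. Read as a mean of probe sets it passed, at -0.62 (adjusted p = 0.0252), against -0.20 in the fit reported. Atp1b3 at 80 mg/kg on day 8 turned to -0.030 under a common median. The causes were not tested. Leaving out single arrays, the count lower at 80 mg/kg against control ranged over 2 to 5 on day 4 and 1 to 2 on day 24, and that at 80 against 30 mg/kg over 1 to 6 on day 4, 6 to 7 on day 8 and 0 to 1 on day 24. The count lower at 30 mg/kg on day 15 ranged over 0 to 1, the step from day 4 to day 8 over 1 to 4 and from day 8 to day 15 over 2 to 3. Counts over all genes moved by over 1.5 times in some settings: with a common median 1596, 2996 and 3359 genes were lower at 80 mg/kg on days 4, 8 and 24 (986, 1782 and 330 as deposited) and 943, 1772 and 267 higher (1966, 3664 and 767). On day 24 quantile normalization gave 461 higher, array weights 529 lower and the compared groups alone 174 lower.

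With the replicate block the number of carriers lower at 80 mg/kg against control was 5, 7, 7 and 2 on days 4, 8, 15 and 24, at 80 against 30 mg/kg it was 4, 6, 7 and 1, and the 80 against 30 mg/kg calls of Slco1a1 and Slc22a8 on day 4 and of Slco1a4 on day 8 were lost. By their labels the samples of a block share only a number, and the block moved no count of carriers by over 1.5 times. Signals near background limit Rxra, Ahr, Nox4, Abcc3 and the lymphocyte markers.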
